A study of Mus musculus with 384 samples.

Results

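Neurofilaments are the intermediate filaments of axons, and the axon initial segment is the ankyrin-based membrane domain at which a neuron starts its action potentials. The 10 genes described here were chosen by name: the neurofilament subunits Nefl, Nefm, Nefh and Ina, the initial segment scaffold and adhesion genes Ank3, Nrcam, Nfasc and Sptbn4, and the axonal and neuronal surface genes Gap43 and Thy1. They are 10 of the 32813 genes with values in single cells from mouse retina. In the retina the long, filament-rich axons belong to ganglion cells and horizontal cells, while bipolar cells have short axons that stay within the retina.

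Neurofilaments are built from a light, a medium and a heavy chain together with alpha-internexin. At the initial segment, ankyrin-G binds the spectrin mesh below the membrane and holds sodium and potassium channels and the cell adhesion molecules neurofascin and NrCAM in place. Markers such as Thy1 and the neurofilament chains are widely used to tell ganglion cells from other retinal neurons.

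The cells came from 4 retinas of 2 mice at postnatal day 17, named 1la and 1Ra (mouse 1) and 2la and 2Ra (mouse 2), and what la and Ra stand for is not given in the labels. All mice carried a Cre recombinase inserted at the Kcng4 locus, the gene of a potassium channel subunit, and a reporter under Thy1 control (Line#1) that makes yellow fluorescent protein once Cre has removed its stop cassette. Sorted cells therefore have present or past Cre activity and also express the Thy1-driven reporter, and all groups used here share both. Each retina filled a plate of 96 wells, 1 sorted cell per well. Libraries were made by Smart-seq2, which reads along the length of a transcript, and 383 of the 384 wells had values.

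Cells with at least 3000 genes (a gene being counted from an expected count of 1) were grouped by which 1 of 3 genes reached 20 TPM (a level scaled to transcript length and to the cell's total): Sox6, Vsx1 or Ddit4l. This gave 151 Sox6-only cells (33, 30, 46 and 42 in retinas 1la, 1Ra, 2la and 2Ra), 60 Vsx1-only cells (16, 18, 14 and 12) and 59 Ddit4l-only cells (10, 19, 20 and 10). A further 33 cells had none of the 3 genes at that level, 18 had more than 1, and 62 wells had under 3000 genes (25, 16, 8 and 13). Median totals were 1067450, 1072600 and 1091480 counts per cell in the Sox6-only, Vsx1-only and Ddit4l-only cells, against 8838 in the wells under 3000 genes. Of 12 bipolar cell markers, 11, 10 and 9 were found in most cells of the 3 groups, whereas none of 11 ganglion cell markers was, and no cell of these groups had 2 ganglion cell markers at 20 TPM. Rod genes summed to 1000 TPM or more in 44, 19 and 12 cells of the 3 groups.

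Depth and mitochondrial share moved together with the retina. In the marker groups, the median mitochondrial share of counts was 1.97% to 2.35% in the la retinas and 3.62% to 4.97% in the Ra retinas, and the median totals of both Ra retinas were below those of the la retinas, lowest in 1Ra. Counts of the cells of a group were summed per mouse (2 sums a group) and compared with edgeR's quasi-likelihood test with the mouse as a block, and levels of sums are given in CPM (counts scaled to the library size after TMM normalization, not to length) unless plain library totals are named. Sums per retina (4 a group, the retina as a block) served as an alternative, and their p-values describe the spread among retinas and are too small as statements about mice. In the 270 cells of the 3 marker groups, Ank3 and Nfasc were the members found most often, and the plot of levels per cell shows each gene.

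**Figure D1:**
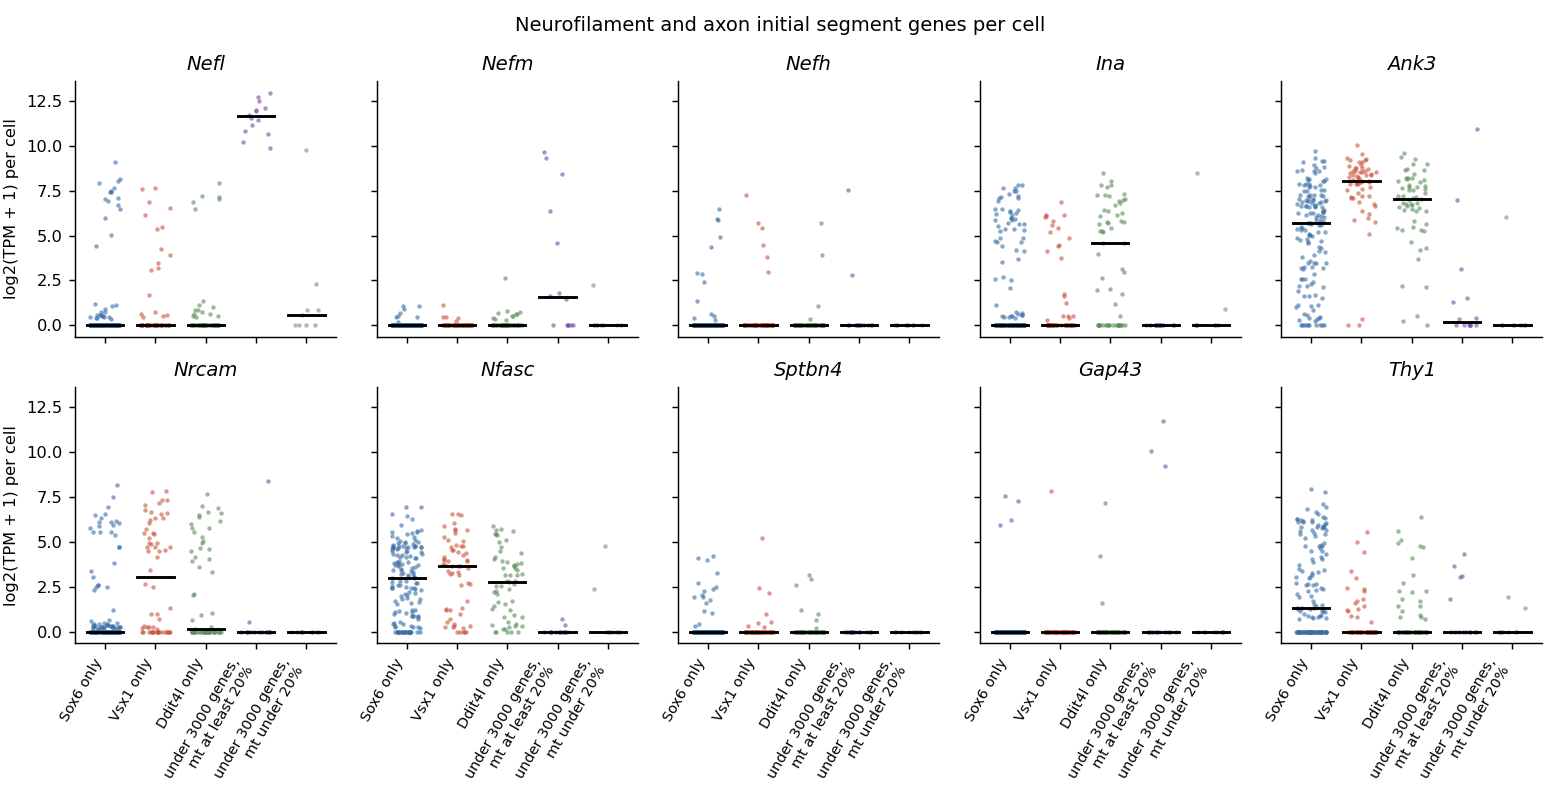
Level of each of the 10 genes per cell, as log2(TPM + 1), in the Sox6-only, Vsx1-only and Ddit4l-only cells (151, 60 and 59 cells) and in the wells under 3000 genes with at least 50000 counts, split at a mitochondrial share (mt) of 20% (14 and 9 wells). Points are cells and bars are medians. Ank3 and Nfasc were found in most cells of all 3 marker groups, the neurofilament genes were at 0 in most of them except Ina in Ddit4l-only cells, and Nefl was high in all 14 wells with a high mitochondrial share.

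Ank3 encodes ankyrin-G, the scaffold on which the initial segment is assembled (chr10:69398773-70027438, plus strand, mm10). It had the highest median level of the 10 genes in every marker group, at 51.2 TPM in Sox6-only, 266 TPM in Vsx1-only and 132 TPM in Ddit4l-only cells, and its highest value in a cell was 1033 TPM. In Vsx1-only cells the sums stood at 654, 668, 768 and 453 CPM in retinas 1la, 1Ra, 2la and 2Ra. In Ddit4l-only cells they stood at 447, 377, 437 and 223 CPM, and in Sox6-only cells at 305, 170.05, 236 and 188 CPM. In each of the 4 retinas the Vsx1-only cells were above the Ddit4l-only cells and these above the Sox6-only cells. Over the 4 retinas the Vsx1-only values did not overlap those of either other group, while the Ddit4l-only and Sox6-only values did overlap. The share of all genes without such overlap was not counted. How unusual it is, here and for the genes below, cannot be told.

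Summed per mouse, Ank3 was at 261 and 215 CPM in the Sox6-only cells of mouse 1 and mouse 2, at 666 and 620 CPM in Vsx1-only cells, and at 411 and 375 CPM in Ddit4l-only cells. The log2 difference of Sox6-only minus Vsx1-only cells was -1.44 ± 0.15 (SE, n = 2 mice), with an edgeR adjusted p = 0.156 over 16643 genes. Sox6-only minus Ddit4l-only cells gave -0.73 ± 0.15 (adjusted p = 0.475, edgeR), and Vsx1-only minus Ddit4l-only cells gave 0.71 ± 0.15 (adjusted p = 0.220, edgeR). None of these passed the threshold of 0.05. With sums per retina, Ank3 was lower in Sox6-only than in Vsx1-only cells, with a log2 difference of -1.50 ± 0.18 (adjusted p = 0.00757, edgeR), and Vsx1-only minus Ddit4l-only cells gave 0.80 ± 0.17 (adjusted p = 0.0528). Over the 19 alternatives, the adjusted p for Sox6-only minus Vsx1-only cells ran from 1.01e-10 with DESeq2 to 0.657 with mouse 1 left out. The difference kept its sign in all 19 and was past the threshold in 4.

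Of the 10 members, 9 passed the filter on low counts between the marker groups, and Nefm did not. Of the 9, 0 were called in the sums per mouse in any of the 3 pairwise comparisons, with 3 members at an unadjusted p under 0.05 in each. Of all genes tested, 0.00% were called for Sox6-only against Vsx1-only cells, 0.00% for Sox6-only against Ddit4l-only and 0.0361% for Vsx1-only against Ddit4l-only cells. At an unadjusted p under 0.05 stood 1427, 1339 and 2139 genes. DESeq2 called 905, 825 and 1743 genes (5.44%, 4.96% and 10.5%), of which 3 members each time. With sums per retina, 1 member (Ank3) was called for Sox6-only against Vsx1-only cells, where 0.855% of all genes were called. No member was called in the other pairs, where 0.600% (Sox6-only against Ddit4l-only) and 2.51% (Vsx1-only against Ddit4l-only) of genes were. The 3 pairwise comparisons share their groups, so they are not independent of each other.

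**Figure D2:**
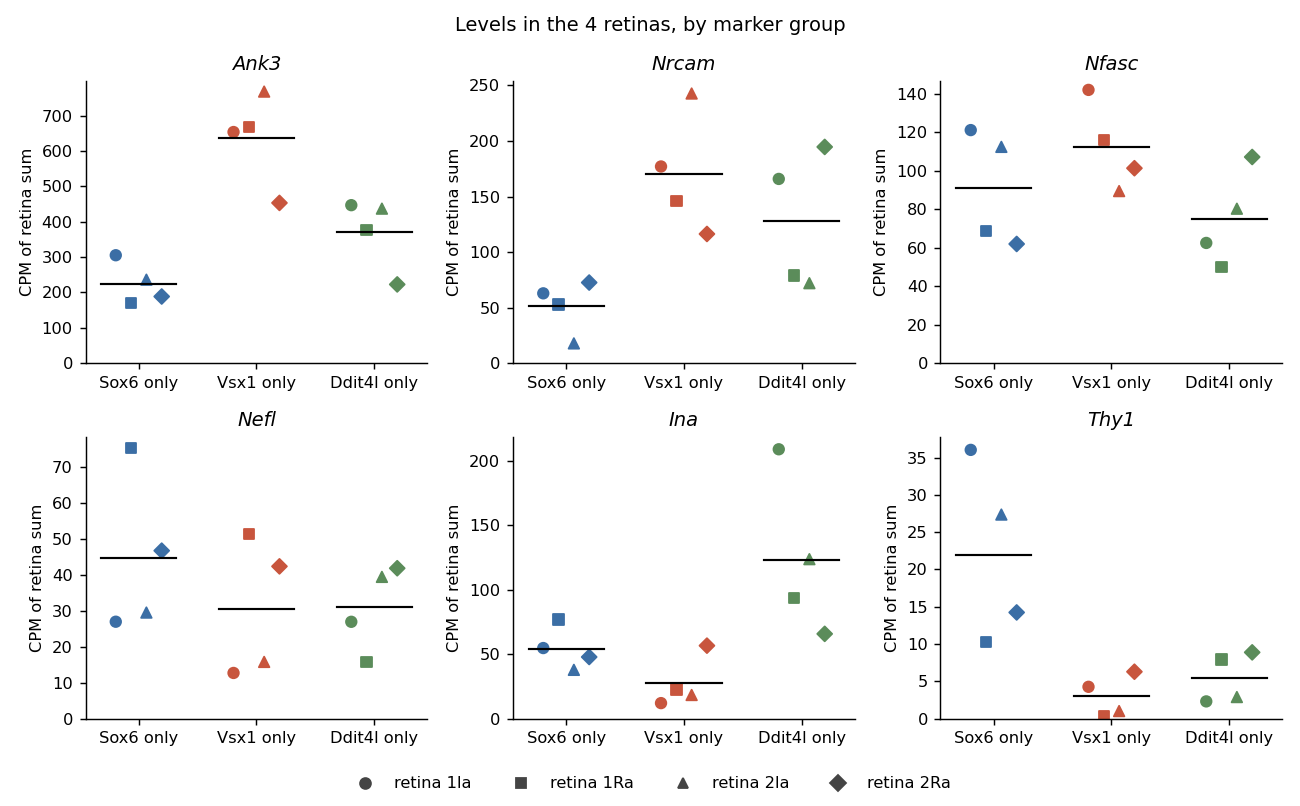
CPM of the cells summed per retina and marker group for 6 of the genes, with each axis starting at 0. Symbols are the 4 retinas and bars are means of the 4. Vsx1-only cells had the highest Ank3 in every retina, Ddit4l-only cells the highest Ina, and Sox6-only cells the highest Thy1.

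Nrcam encodes a cell adhesion molecule of the initial segment and the nodes of Ranvier (chr12:44328885-44601964, plus strand). It was found at 1 TPM or more in 18.5% of Sox6-only cells, 55% of Vsx1-only cells and 44.1% of Ddit4l-only cells. The retina sums were 62.8, 52.6, 17.7 and 72.5 CPM in Sox6-only cells (1la, 1Ra, 2la, 2Ra). In Vsx1-only cells they were 177, 146, 243 and 116 CPM, and in Ddit4l-only cells 166, 78.7, 71.9 and 195 CPM. The Sox6-only value was the lowest of the 3 in each retina. It overlapped with the Ddit4l-only range by a narrow margin and not with the Vsx1-only range. In sums per mouse, the log2 difference of Sox6-only minus Vsx1-only cells was -1.81 ± 0.28 (adjusted p = 0.270, edgeR, n = 2 mice), that to Ddit4l-only cells was -1.19 ± 0.28 (adjusted p = 0.475, edgeR), and Vsx1-only minus Ddit4l-only cells gave 0.62 ± 0.27 (adjusted p = 0.443, edgeR). The first of these was called by DESeq2 (adjusted p = 1.2e-06) and by limma at a pseudocount of 1 (adjusted p = 0.0378), within a range up to 0.775 over the 19 alternatives. The second was called by DESeq2 alone (adjusted p = 0.00531), within a range up to 0.932. Without retina 2la the difference of Vsx1-only minus Ddit4l-only cells was -0.11.

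Nfasc encodes neurofascin, which binds ankyrin-G at the initial segment and, in a glial form, takes part in the paranodes (chr1:132564690-132741797, minus strand). It was found at 1 TPM or more in 72.8%, 76.7% and 72.9% of Sox6-only, Vsx1-only and Ddit4l-only cells, with medians of 6.89, 11.6 and 5.89 TPM. Its retina sums (1la, 1Ra, 2la, 2Ra) ran 121, 68.5, 112 and 61.9 CPM in Sox6-only cells, 142, 116, 89.3 and 101 CPM in Vsx1-only cells and 62.4, 49.9, 80.2 and 107 CPM in Ddit4l-only cells. All 3 ranges overlapped. The log2 differences in sums per mouse were -0.21 ± 0.37 (Sox6-only minus Vsx1-only), 0.42 ± 0.38 (Sox6-only minus Ddit4l-only) and 0.63 ± 0.38 (Vsx1-only minus Ddit4l-only), with edgeR adjusted p-values of 0.970, 0.850 and 0.572.

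Sptbn4 encodes the beta-IV spectrin that ties ankyrin-G to the actin skeleton (chr7:27356383-27447686, minus strand). It was scarce, at 1 TPM or more in 9.93%, 5% and 6.78% of Sox6-only, Vsx1-only and Ddit4l-only cells, and never above 35.8 TPM. Up to 57.6% of its summed counts in a marker group came from 1 cell, so no fitted fold change is given for it. All 4 scaffold and adhesion genes were at 1 TPM or more together in 7 of the 270 cells, 3 of them in 67 cells, 2 in 136, 1 in 52 and none in 8.

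The neurofilament subunits were at 0 TPM in the median cell of every marker group, apart from Ina in the Ddit4l-only cells. Nefl encodes the light chain (chr14:68083863-68089095, plus strand) and was at 1 TPM or more in 12.6% of Sox6-only cells (95% exact binomial interval 7.75% to 18.95%), 21.7% of Vsx1-only cells (12.1% to 34.2%) and 13.6% of Ddit4l-only cells (6.04% to 24.98%). These intervals cover counting error only and they overlap. Where found, it could be high: 24 of the 321 cells with at least 3000 genes had 100 TPM or more, and the highest, a Sox6-only cell, had 555 TPM. The retina sums of Nefl (1la, 1Ra, 2la, 2Ra) were 26.9, 75.2, 29.5 and 46.7 CPM in Sox6-only cells, 12.7, 51.2, 15.7 and 42.3 CPM in Vsx1-only cells and 26.9, 15.8, 39.4 and 41.8 CPM in Ddit4l-only cells. The 3 ranges overlapped, and no difference between the groups passed the test, with log2 differences in sums per mouse of 0.56 ± 0.50, 0.44 ± 0.50 and -0.12 ± 0.50 (edgeR adjusted p = 0.882, 0.902 and 0.963) in the order of the comparisons used for Nfasc. A single cell gave 57.9% of the Nefl counts in Ddit4l-only cells of mouse 1 and 51.9% in Vsx1-only cells of mouse 2.

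Within the Sox6-only and the Vsx1-only cells, the 2 Ra retinas stood above the 2 la retinas in Nefl. Ank3, Nfasc and Thy1 stood the other way in Sox6-only cells, with both la values above both Ra values. These orders were not shared by all groups. In Ddit4l-only cells Thy1 was higher in the Ra retina of both mice, Ank3 in the la retina, and Nefl and Nfasc in neither. In Vsx1-only cells Ank3, Nfasc and Thy1 were higher in neither. The mitochondrial share was higher and the depth lower in both Ra retinas (medians above), and their part in these values was not tested.

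Ina encodes alpha-internexin, a further neurofilament subunit that is made early in neuronal development (chr19:47014698-47025327, plus strand). In Ddit4l-only cells its median was 23.1 TPM and 64.4% of cells (50.9% to 76.4%) had 1 TPM or more, against 31.8% (24.5% to 39.9%) of Sox6-only and 28.3% (17.5% to 41.4%) of Vsx1-only cells. Its retina sums (1la, 1Ra, 2la, 2Ra) were 209, 93.6, 124 and 65.7 CPM in Ddit4l-only cells. In Sox6-only cells they were 54.7, 76.9, 37.8 and 47.8 CPM, and in Vsx1-only cells 12.02, 22.7, 18.3 and 56.6 CPM. The Ddit4l-only value was the highest of the 3 in each retina, and it did not overlap with the Vsx1-only range. Vsx1-only minus Ddit4l-only cells gave a log2 difference of -2.33 ± 0.53 in sums per mouse (adjusted p = 0.241, edgeR, n = 2 mice). Sox6-only minus Ddit4l-only cells gave -1.27 ± 0.51 (adjusted p = 0.629, edgeR) and Sox6-only minus Vsx1-only cells 1.06 ± 0.52 (adjusted p = 0.686, edgeR). For the first of these, the adjusted p over the 19 alternatives ran from 0.000251 with DESeq2 to 0.622, and only DESeq2 called it.

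In the GENCODE M21 annotation, 456 exon bases of Ina (chr19:47014698-47015153) are also exon of Nt5c2, a nucleotidase gene on the other strand, and Smart-seq2 does not mark strand. On plain library totals, Nt5c2 was at 16.8, 6.92, 48.1 and 75.1 CPM in the Ddit4l-only cells of retinas 1la, 1Ra, 2la and 2Ra, where Ina was at 206, 96.5, 128 and 65.2 CPM. In Sox6-only cells Nt5c2 was at 29.98, 20.4, 26.4 and 40.3 CPM, and in Vsx1-only cells at 50.9, 40.3, 15.4 and 29.2 CPM. Its part in the Ina values was not tested. Which annotation the authors counted with is not given in the sources used here.

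Nefm, the medium chain (chr14:68082590-68124846, minus strand), reached 1 TPM in 4 of the 270 cells, where its highest value was 5.25 TPM. Nefh, the heavy chain (chr11:4938754-4948064, minus strand), reached 1 TPM in 18 of the 270 cells, with a highest value of 154 TPM in a Vsx1-only cell. In 1 marker group at least, a single cell gave 61.1% of the Nefm counts and 59.6% of the Nefh counts, so fold changes are not given for them. The chains were seldom found together: of the 270 cells, 131 had none of the 4 subunits at 1 TPM, 116 had 1, 20 had 2, 3 had 3 and none had all 4. Among the 321 cells with at least 3000 genes, 1 had both Nefl and Nefm at 1 TPM, and 8 had both Nefl and Nefh.

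Nefl and Nefm are neighbours, and their annotated exons overlap by 1108 bases on opposite strands (chr14:68083863-68084970, from the last exon of the transcript Nefm-202 and the first exon of Nefl). Of these, 144 bases (chr14:68084827-68084970) are coding in Nefl and, on the other strand, in Nefm-202. They are shown because reads from them cannot be assigned to Nefl or Nefm without strand (mm10, plus strand, 5′ to 3′, from the GENCODE M21 transcripts, no capitals).
Nefl and Nefm-202: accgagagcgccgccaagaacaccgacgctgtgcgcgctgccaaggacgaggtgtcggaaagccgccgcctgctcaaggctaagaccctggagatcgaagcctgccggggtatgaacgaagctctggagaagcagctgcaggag

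Thy1 encodes a small surface glycoprotein held by a lipid anchor and is a classic marker of ganglion cells (chr9:44043384-44048579, plus strand). It was at 1 TPM or more in 54.3% of Sox6-only cells (46.02% to 62.4%), 25% of Vsx1-only cells (14.7% to 37.9%) and 28.8% of Ddit4l-only cells (17.8% to 42.1%). Its retina sums (1la, 1Ra, 2la, 2Ra) were 36.02, 10.3, 27.4 and 14.2 CPM in Sox6-only cells. They were 4.26, 0.375, 1.01 and 6.28 CPM in Vsx1-only cells, and 2.31, 7.94, 2.89 and 8.88 CPM in Ddit4l-only cells. The Sox6-only range lay above both others, which overlapped each other. Sox6-only minus Vsx1-only cells gave a log2 difference of 3.05 ± 0.70 in sums per mouse (adjusted p = 0.419, edgeR, n = 2 mice), and Sox6-only minus Ddit4l-only cells 2.26 ± 0.68 (adjusted p = 0.541, edgeR). Vsx1-only minus Ddit4l-only cells gave -0.79 ± 0.65 (adjusted p = 0.688, edgeR), and without retina 1Ra it was 0.05. DESeq2 called the first pair (adjusted p = 0.000966) and the second (adjusted p = 0.0365), and no other alternative called either. Their ranges over the 19 alternatives reached 0.863 and 0.960. In the Vsx1-only cells of mouse 1, a single cell gave 64.8% of the Thy1 counts. The reporter in these mice is itself driven by Thy1 sequence, and reads from it and from the Thy1 gene cannot be told apart here.

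Gap43 encodes a protein of growing axon tips (chr16:42248442-42340651, minus strand). It was at 1 TPM or more in 4 Sox6-only, 1 Vsx1-only and 3 Ddit4l-only cells, with a highest value of 223 TPM in a Vsx1-only cell. In 1 marker group a single cell gave 100% of its counts.

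**Figure D3:**
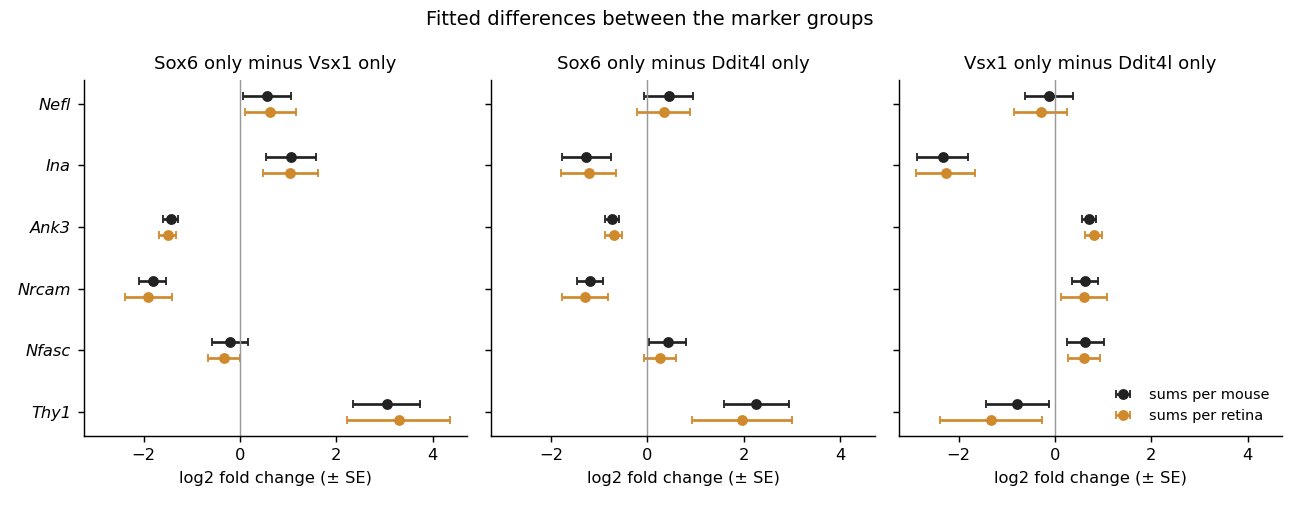
Fitted log2 fold change ± SE between the marker groups for the 6 genes of which no single cell gave 50% of the counts of a group over both mice, from sums per mouse (n = 2 mice) and sums per retina (n = 4 retinas). Points right of 0 are higher in the first group named. Of these values, Ank3 in Sox6-only minus Vsx1-only cells with sums per retina was past an adjusted p of 0.05.

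The shares of cells with a member were also compared at equal depth, each cell being thinned to 50000 counts and no cell of the marker groups being left out. The share with at least 1 count of Ank3 was then 76.2%, 95% and 89.8% in Sox6-only, Vsx1-only and Ddit4l-only cells, against 93.4%, 96.7% and 98.3% unthinned. For Ina it was 29.8%, 23.3% and 57.6% (39.1%, 36.7% and 66.1% unthinned), for Nrcam 16.6%, 56.7% and 42.4% (38.4%, 68.3% and 50.8%), and for Thy1 32.5%, 6.67% and 13.6% (60.3%, 30% and 35.6%). For Nefl it was 11.3%, 18.3% and 10.2% (21.9%, 30% and 28.8%). Ina, Nrcam, Thy1 and Nefl had their highest share in the same group with and without thinning, while Ank3 had it in Vsx1-only cells after thinning and in Ddit4l-only cells before.

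Correlations between members from cell to cell were low in the pooled cells, where most members were under 1 TPM in most cells. Over the 321 cells with at least 3000 genes, the highest Pearson r of log2(TPM + 1) between 2 members was 0.19, for Nefl with Nefh, and Ank3 with Nfasc gave 0.14. Within Vsx1-only cells the value furthest from 0 was -0.39, for Ina with Ank3. It was 0.24 in Sox6-only cells (Ank3 with Nfasc) and 0.23 in Ddit4l-only cells (Nefl with Nefh). These cells share plates and differ in depth, so the values are a description. Among 12457 genes, none reached the r of 0.5 asked for to name a gene as similar to a member. In the 33 cells with none of the 3 marker genes, Ank3 had a median of 105 TPM, and in the 18 cells with more than 1 it had 108 TPM. Ina reached 1 TPM in 6 of the former and 11 of the latter.

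The wells under 3000 genes held the highest Nefl, Nefm and Nefh levels of any well or cell, while the highest Ina level was in a Ddit4l-only cell (362 TPM). Of the 62 wells, 39 had under 50000 counts, and in these Nefl had 2 counts of 232966 in all (8.58 CPM on plain totals). Their mitochondrial share ran from 0% to 67.1%, with a median of 0.928%. The other 23 were looked at 1 by 1. They fell apart by the mitochondrial share of counts, with 14 wells at 28.7% to 61.4% (4 of retina 1la, 6 of 1Ra, 4 of 2la, none of 2Ra) and 9 wells at 2.66% to 11.1% (1, 7, 1 and none). The line of 20% between them was drawn after the values were seen.

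**Figure D4:**
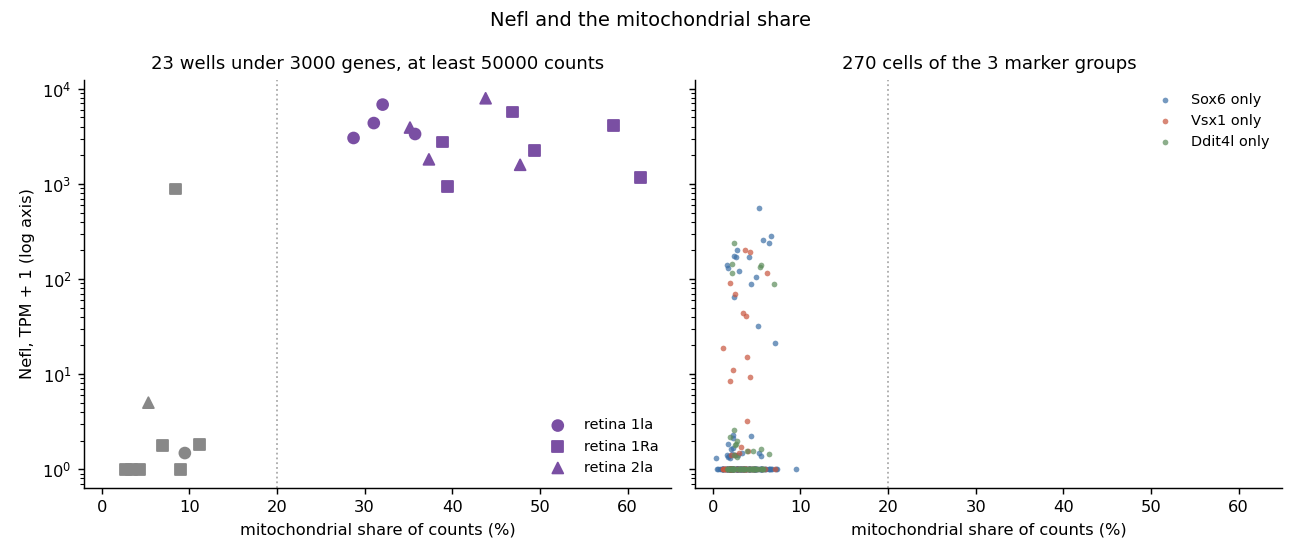
Nefl level (TPM + 1, log axis) against the mitochondrial share of counts, in the 23 wells under 3000 genes with at least 50000 counts (symbols are retinas) and in the 270 cells of the 3 marker groups. The dotted line is at 20%. All 14 wells right of it had Nefl above 900 TPM, as no cell of the marker groups did, and 1 well left of it had 883 TPM.

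All 14 wells with at least 50000 counts and a high mitochondrial share had Nefl, from 932 to 7942 TPM with a median of 3191 TPM. Shallower wells, some of which had a high share too, are not among these 14. None of the 321 cells with at least 3000 genes reached the lowest of these values. Of the 9 wells with a low mitochondrial share, 1 had 883 TPM and the others had 4.01 TPM or less. Over the 23 wells, Pearson's r of log2(TPM + 1) of Nefl with the mitochondrial share was 0.84 and Spearman's rho 0.67, against 0.13 and 0.05 over the 270 cells of the marker groups. The 23 wells form 2 separate sets by this share, so these values include the step between the sets and do not show a graded rise. Among the 14 wells, Nefl was at 1166 TPM at the highest share (61.4%) and at 3037 TPM at the lowest (28.7%). Its highest level, 7942 TPM, was at a share of 43.8%. The wells share plates and differ in depth and number of genes, and these values are a description.

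The other neurofilament subunits were found in fewer of these 14 wells than Nefl. Nefm reached 1 TPM in 8 of them, with values of 789, 644, 346, 80.2, 23.2, 2.51, 2.11 and 1.76 TPM, and was at 0 in 6. Its counts came to 18.8% of the Nefl counts at most, and 0.0289% in the well with the highest Nefl. Nefh was at 1 TPM or more in 2 wells (186 and 6.09 TPM). Ina had 0 counts of 5032822 in the 14 wells together, which allows up to 0.596 CPM.

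The initial segment genes were mostly at 0 there. Sptbn4 had 0 counts, and Nfasc had 3 counts and no well above 0.63 TPM, although Nfasc was found in most cells of every marker group. Ank3 had a median of 0.14 TPM and was at 1984 TPM in 1 well, which held 83.1% of its counts. Nrcam was at 339 TPM in 1 well and under 1 TPM in the others. Gap43 was at 3363, 1045 and 596 TPM in 3 wells and at 0 in 11, and Thy1 did not exceed 18.6 TPM.

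**Figure D5:**
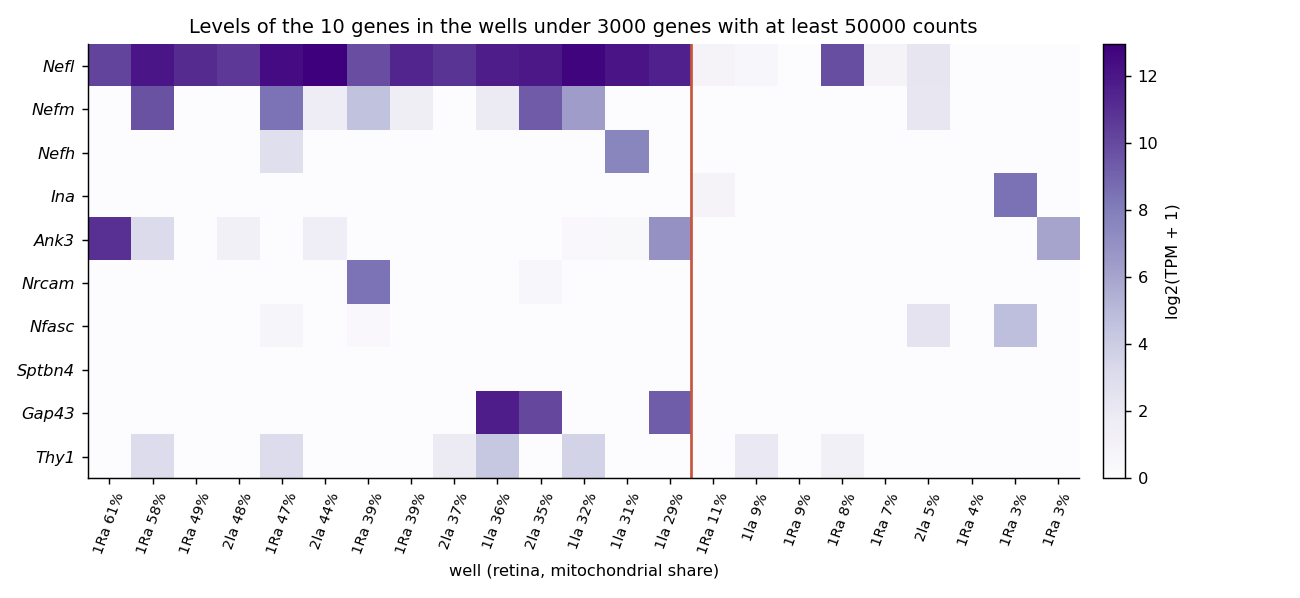
Level of the 10 genes, as log2(TPM + 1), in the 23 wells under 3000 genes with at least 50000 counts, ordered by mitochondrial share, each well labelled by its retina and rounded share. The line separates the 14 wells above 20% from the 9 below. The Nefl row is filled in all 14, Nefm is filled in 8 of them, and the Ina and Sptbn4 rows are empty there.

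Summed over all wells under 3000 genes, Nefl was at 7165, 2932, 9415 and 0 CPM in retinas 1la, 1Ra, 2la and 2Ra, on plain library totals. Retina 2Ra had only 146247 counts in these wells, so its 0 allows up to 20.5 CPM. Per mouse, Nefl was at 4345 and 8470 CPM in mouse 1 and mouse 2, where the 3 marker groups ranged from 20.98 to 43.6 CPM. Nefm was at 146 and 447 CPM, against 0.0622 to 0.648 CPM in the marker groups. A single well gave 61.996% of these Nefm counts in mouse 1 and 99.6% in mouse 2.

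Against the mean of the 3 marker groups, the wells under 3000 genes had a log2 difference of 10.98 ± 1.70 in Nefl (adjusted p = 0.0904, edgeR, n = 2 mice), which did not pass the threshold. In this comparison 0 of 10 members and 0.00% of all 16677 genes tested were called, with 3 members and 4248 genes at an unadjusted p under 0.05. DESeq2 called 4 members (Nefl, Nefm, Nefh and Gap43) and 4704 genes (28.2%). Nefm passed the filter on low counts only through the low-gene wells, where it is high, so no test of it is given and its calls are no support. A low number of genes was part of the choice of these wells, and the median of all genes was -1.98. Changes here are therefore read relative to that median. The TMM scaling factors of these 8 sums ran from 0.0727 to 1.58. On library totals without TMM, which moved the median of all genes to -4.02 and called 19.7% of genes, Nefl gave 7.58 ± 0.48 (adjusted p = 0.0216, edgeR). This scaling was added after the values were seen.

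With sums per retina, 13.4% of all genes were called (2.07% higher, 11.4% lower). Of the 9 members other than Nefm, Nefl alone was called, higher with a log2 difference of 10.05 ± 1.76 (adjusted p = 0.00772, edgeR). Over the 22 alternatives, the adjusted p of Nefl ran from 3.39e-27 to 0.371, it was past the threshold in 9, and its sign did not change. These 9 include the library totals and the 2 sets of wells split at a mitochondrial share of 20%. Both choices were made after the values were seen, so those calls are no support. Without retina 2la the log2 difference of Nefl was 6.42, against 10.98 with all retinas, and without mouse 2 it was 8.91. With only the 14 wells of high mitochondrial share, the log2 difference of Nefl was 11.72, and with the 9 other wells it was 2.52, where 99.7% of its counts came from 1 well. These 2 values describe wells that were separated after their levels were seen, and no test of them is given.

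Markers of cell types were counted in the same wells. Kcng4, whose locus carries the Cre, did not exceed 2.39 TPM in the 14 wells and had a median of 177 TPM in the 9 wells with a low mitochondrial share. The 12 bipolar cell markers summed to between 10.6 and 9008 TPM in the 14 wells (median 664) and between 91.03 and 18299 TPM in the 270 cells (median 8092). The 11 ganglion cell markers summed to between 0 and 6940 TPM and were above 0 in 7 of the 14 wells and in none of the 9, and in the 270 cells they ranged from 0 to 1566 TPM with a median of 0. Of that list, Sncg was found in 5 wells (305 to 4143 TPM) and Pou4f1, Nrn1 and Chrna6 in 1 each. The rest of the list (Rbpms, Rbpms2, Slc17a6, Pou4f2, Pou4f3, Isl2 and Ebf3) was at 0 in all 23. The 14 wells had only 650 to 2180 genes each, so a marker at 0 says little. Rod markers summed to between 7.08 and 21246 TPM in the 14 wells, horizontal cell markers to at most 74.7 TPM and amacrine cell markers to at most 660.3 TPM. In the 270 cells these lists had medians of 165, 358 and 1.03 TPM. The horizontal list holds Sept4 and Prox1, found in most cells of every marker group, so its sum does not single out horizontal cells here. The part of these cell types, of depth and of the mitochondrial share in the Nefl levels was not tested. Without the 1 well with 2 ganglion cell markers, Nefl gave a log2 difference of 10.29. Without the wells and cells rich in rod genes it gave 11.10.

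The other genes of these pathways were taken from lists of neurofilament subunits, initial segment scaffold and adhesion, initial segment channels, axon growth proteins, microtubule and axonal transport, and lipid-anchored surface proteins of the Thy1 kind. In sums per mouse, none of the tested genes of any list was called in any of the 4 comparisons with edgeR, where 0.00% to 0.0361% of all genes were. With sums per retina, Sox6-only against Vsx1-only cells gave 1 of 19 scaffold and adhesion genes lower (Ank3) and 1 of 13 channel genes higher, where 0.310% of all genes were lower and 0.545% higher. The latter was Fgf13, which encodes a partner of sodium channels, with a log2 difference of 2.85 ± 0.48 (adjusted p = 0.0346, edgeR). Among 11 axon growth genes 1 was higher, the neuronal tubulin gene Tubb3 (3.27 ± 0.31, adjusted p = 0.00258), and among 7 surface protein genes 1 was lower, the prion protein gene Prnp (-1.25 ± 0.16, adjusted p = 0.00902). Of 15 transport genes none was called there, and no gene of any list was called between Sox6-only and Ddit4l-only cells, where 0.427% of all genes were higher and 0.172% lower.

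Between Vsx1-only and Ddit4l-only cells, sums per retina called 1.41% of all genes higher and 1.10% lower. They gave 1 of 11 axon growth genes, Tubb3, lower (-2.74 ± 0.30, adjusted p = 0.00289, edgeR) and 1 of 7 surface protein genes, Prnp, higher (1.80 ± 0.16, adjusted p = 0.000888). Of the 15 transport genes, Map1b, a microtubule-associated protein of growing axons, was higher (1.15 ± 0.21, adjusted p = 0.0308). Kif5c, a kinesin motor, and Mapt, the tau gene, were lower (-1.13 ± 0.21 and -0.98 ± 0.20, adjusted p = 0.0318 and 0.0430). No gene of the neurofilament, scaffold and channel lists was called in this pair.

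In the wells under 3000 genes, sums per retina called 4 of 15 transport genes higher: Map1a, Map2 and Kif5b, and also Kif5a, which was named after its values were seen. The log2 differences ran from 4.19 to 6.08 (adjusted p from 0.0139 to 0.0441, edgeR), beside a median over all genes of -1.92 and 2.07% of all genes called higher. In the 14 wells with a high mitochondrial share, the kinesin gene Kif5b had a mean of 830 TPM and a median of 294 TPM, against means of 52.96 to 71.3 TPM and medians of 0.74 to 2.17 TPM in the marker groups. Map2, a dendritic microtubule protein, had a mean of 615 TPM against 133 to 184 TPM, but its median of 39.5 TPM was below those of the marker groups (64.6 to 141 TPM). Each of the 2 genes reached 1 TPM in 8 of the 14 wells, while Map2 did so in 116 of 151 Sox6-only, 57 of 60 Vsx1-only and 53 of 59 Ddit4l-only cells. Tubb3 did not exceed 3.28 TPM in the 14 wells. Of the scaffold list 1 of 19 genes, the dynein regulator Ndel1, was called lower, and of the channel list 1 of 13, the sodium channel gene Scn2a1, where 11.4% of all genes were lower, so these counts are not above the background. Both were at 0 in all 14 wells.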

How the data were processed

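Single cells were assayed by Smart-seq2 with single-end reads. The authors deposited RSEM expected counts and TPM per gene and cell. TopHat2 2.0.10, RSEM 1.2.28 and mm10 are named in the submitters' processing notes; the annotation is not given in the sources used here. Expected counts were rounded, summed per mouse and group, and tested with edgeR 4.0.16 (quasi-likelihood, TMM, filterByExpr, mouse as block; R 4.3.3), in 1 fit for the 3 marker groups and another with the wells under 3000 genes added. Genes were called at 0.05 after Benjamini-Hochberg adjustment over all genes tested. SEs were derived from the F statistic. DESeq2 1.42.0, limma 3.58.1 on mean log2(TPM + 1) or log2(TPM + 10), other thresholds and left-out samples were alternatives. Sox6, Vsx1 and Ddit4l made the groups and were not tested.

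The mouse block follows the labels, since each mouse gave cells to every group. No 2 of the 321 cells with at least 3000 genes held identical values (highest correlation of log counts 0.77). The wells under 3000 genes were not checked for this. Doublets were not called. A comparison of coding sequences is not reported here. Members and gene lists were chosen with earlier results of these data known, and all members are named. Of each list, up to 3 called genes with the smallest adjusted p are named. Fitted fold changes between marker groups are given where no cell held 50% of a group's counts over both mice, a rule set after seeing the data. Within a single mouse, 1 cell could still exceed 50% of the Nefl or Thy1 counts of a group. The fit was also run on simulated counts, but the outcome is not given here, so nothing is read from it. With 2 mice, p-values describe these animals' spread.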

Additional observations from a re-analysis of the deposited data

Results flagged for a closer look

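Of 30 sets of 4 retina sums (10 genes in 3 marker groups), 4 held 1 retina whose gap to the nearest other exceeded Dixon's 95% limit. For normally distributed values chance gives about 1 in 20. These 4 sets are of genes found in few cells, where that rate does not hold, so no excess is read from the count. Nefm in the Ddit4l-only cells of retina 2Ra was at 1.81 CPM, with 0.119 to 0.195 CPM in the other retinas. Sptbn4 in the Vsx1-only cells of retina 2la was at 7.67 CPM. Gap43 was at 17.5 CPM in the Vsx1-only cells of retina 2Ra, where the 3 other retinas were at 0, and at 5.86 CPM in the Ddit4l-only cells of retina 1Ra.

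The Sptbn4 ratio also had opposite signs in the 2 mice, but it rests on few counts. The Vsx1-only cells of mouse 1 held 1 count in all. Those of mouse 2 held 134, of which 129 were from retina 2la, and 1 cell gave 52.1% of the counts of mouse 2. The mean log2 ratio of Vsx1-only to Ddit4l-only cells, with 1 CPM added, was -1.62 over the 2 retinas of mouse 1 and 1.35 over those of mouse 2, and this difference was not tested.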

How the results depend on the processing

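The number of genes called depended strongly on the test and on the number of sums. For Sox6-only minus Vsx1-only cells, edgeR on mouse sums called 0 genes, and the count was 905 with DESeq2, 124 with retina sums, 250 and 148 with limma at a pseudocount of 1 and 10, 15 with no replicate block, 3 with no filter on low counts, 3 and 1 with marker thresholds of 5 and 50 TPM, and 0 to 3 with 1 retina or mouse left out. For Sox6-only minus Ddit4l-only cells it was 0, and 825, 87, 85 and 36 with DESeq2, retina sums and limma, 1 with no replicate block and 0 to 1 with 1 left out. For Vsx1-only minus Ddit4l-only cells it was 6, and 1743, 364, 482, 342 and 60 in the same order, 3 at 50 TPM, 0 without cells rich in rod genes and 0 to 9 with 1 left out. For the wells under 3000 genes it was 0, and 4704 with DESeq2 (1722 higher, 2982 lower), 1916 with retina sums (295 higher, 1621 lower), 12608 and 10636 with limma, 2160 with no replicate block, 3279 on library totals (138 higher, 3141 lower), and 0 to 1 with 1 left out. Restricted to wells with 1500 genes and 50000 counts it was 1850, and with mitochondrial shares above and below 20% it was 2982 and 4119. The cause of these differences was not tested.

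Of the members, edgeR on mouse sums called 0. DESeq2 called 3 in each pair of marker groups (beside 5.44%, 4.96% and 10.5% of all genes) and 4 in the low-gene wells (28.2%). Retina sums called 1 for Sox6-only minus Vsx1-only cells (beside 0.855% of all genes) and 2 in the low-gene wells (13.4%). At pseudocounts of 1 and 10, limma called 2 and 1 for the former (1.35% and 0.8%). For the latter limma called 8 and 8, but 68.2% and 57.5% of all genes were called there, with 104 and 141 genes higher. In the low-gene wells 2 members (Nefl and Nefm) were called with no replicate block and 2 on library totals, 1 in wells with 1500 genes, and 5 and 4 in wells above and below a mitochondrial share of 20%. The counts for low-gene wells include Nefm wherever it was called, although it entered these fits only through those wells, and the wells were separated at 20% after their levels were seen, so these calls are no support. The replicate block changed no other member's call.

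The following log2 differences changed sign. For Sox6-only minus Vsx1-only cells, Nefl turned to -0.30 and -0.067 with limma at pseudocounts of 1 and 10. For Sox6-only minus Ddit4l-only cells, Nefl turned to -0.048 with limma and ranged from -0.19 to 0.92 with 1 retina or mouse left out, with -0.068 without retina 1Ra and the lowest value without mouse 1. Nfasc ranged there from -0.15 (without mouse 1) to 0.72. For Vsx1-only minus Ddit4l-only cells, Nefl turned to 1.10 without cells rich in rod genes and to 0.26 and 0.073 with limma, and it ranged from -0.84 to 0.39 with 1 left out, being positive without retina 1la, retina 2la (0.22) or mouse 2 (0.17). In that pair Nrcam ranged from -0.11 (without retina 2la) to 1.21, Nfasc from -0.019 (without mouse 1) to 1.204, and Thy1 from -2.40 to 0.054 (without retina 1Ra). All other log2 differences between marker groups of the 6 genes given as folds kept their sign.

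With 1 mouse left out, the fit used the 2 retina sums of the other mouse with the retina as a block, so its p-values describe the spread between retinas. Depth limits the 39 wells under 50000 counts, which held 232966 counts in all, and the members found in few cells. In the low-gene wells the scaling moved the median of all genes from -1.98 with TMM to -0.23 with DESeq2 and -4.02 on plain totals. The 20% line and library totals were added after seeing the data.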
